A study of Arabidopsis thaliana with 27 samples.

Results

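Whole seedlings of the Arabidopsis thaliana double mutant vil1-1 cop1-4 were sampled at ZT6 and at ZT0, and the RNA of each sample was sequenced. Zeitgeber time (ZT) counts the hours from lights on, so ZT6 lies 6 h into a light period of 8 h, and ZT0 ends the dark period of 16 h. Libraries were taken by their titles, which give the line and the time: 6 of the 27 libraries of the series, 3 at ZT6 and 3 at ZT0. Both times have the same genotype, with the vil1-1 allele at VIL1 and the cop1-4 allele at COP1, and the same growth on MS plates in short days at 22 °C for about a week. RNA came from a Qiagen RNeasy preparation and went into NEBNext Ultra Directional libraries. The change between the times was set beside that of cop1-4, vil1-1 and the wild type Col-0, each with 3 libraries at ZT6 and 3 at ZT0. Each mutant line stands for a single allele or pair of alleles, and the labels name no separate cultures for the replicates of a group. The p-values therefore cover the scatter of these libraries, and that scatter may be technical.

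COP1 is an E3 ubiquitin ligase subunit that, together with SPA proteins, marks light-signalling factors such as HY5 for degradation in darkness. Seedlings with cop1-4, a weak allele, show traits of light-grown plants in the dark. VIL1 (known too as VRN5) carries a PHD finger and works with Polycomb repressive complex 2, which places the repressive mark H3K27me3 on histones. The plant circadian clock couples MYB-like factors that peak near dawn (CCA1, LHY) with pseudo-response regulators and evening factors (PRR5, TOC1, GI, ELF4) that peak through the day and towards dusk, and the comparison of ZT6 with ZT0 reads out this daily programme together with the response to light.

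The deposited values were read counts per gene. The 6 libraries held 21.3 M to 33.6 M reads in genes, 94.6 to 95.5% of the reads in each table, and levels are given below as counts-per-million (CPM) on library sizes scaled by TMM. The first principal component of the 6 libraries carried 82.2% of their variance and separated ZT6 from ZT0. VIL1 checked the label of the mutant allele: it had 5.61, 5.94 and 6.06 CPM at ZT6 and 5.67, 5.91 and 5.03 CPM at ZT0 in vil1-1 cop1-4, against 23.5, 23.9 and 21.97 CPM at ZT6 and 15.99, 16.7 and 16.2 CPM at ZT0 in Col-0. The cop1-4 transcript is still read, so COP1 counts do not check that allele. Summed levels of 9 root marker genes were 35.1 to 38.7 CPM at ZT6 and 21.4 to 29.1 CPM at ZT0. Col-0 had 143 to 144 CPM at ZT6 and 107 to 116 CPM at ZT0. The sum in cop1-4 was 29.7 to 33.9 CPM at ZT6 and 13.5 to 20.2 CPM at ZT0. IRT1 alone had 69.4, 62.6 and 58.9 CPM at ZT0 in Col-0 and 0.0573, 0.486 and 0.339 CPM in vil1-1 cop1-4. EXPA7 went against the sum at ZT0, with 3.06, 1.98 and 2.90 CPM in Col-0 and 5.44, 7.33 and 5.03 CPM in vil1-1 cop1-4. Summed levels of 5 mesophyll marker genes were 33764 to 39493 CPM at ZT6 and 63935 to 66400 CPM at ZT0. In cop1-4 that sum was 33920 to 34736 CPM at ZT6 and 58141 to 67048 CPM at ZT0. Col-0 had 21677 to 22292.5 CPM at ZT6 and 23362 to 24439 CPM at ZT0. Not every member followed the sum: an LHCB1 gene among them had 3375, 2466 and 2786 CPM at ZT6 and 1703, 1586 and 1338 CPM at ZT0 in vil1-1 cop1-4. Sums of 8 stomatal lineage genes were 35.8 to 38.4 CPM at ZT6 and 39.5 to 44.4 CPM at ZT0. Col-0 had 47.2 to 54.5 CPM at ZT6 and 33.4 to 36.4 CPM at ZT0, and cop1-4 37.4 to 52.0 CPM at ZT6 and 47.1 to 48.4 CPM at ZT0. In RNA of whole seedlings, fewer cells of a type and less RNA per cell cannot be told apart.

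Between ZT6 and ZT0, 13796 of 21448 tested genes (64.3%) changed in vil1-1 cop1-4 at an edgeR adjusted p under 0.05, and a gene past that threshold is called rising (higher at ZT6) or falling (lower at ZT6) below. Rising genes numbered 6800 (31.7%) and falling genes 6996 (32.6%). Changes of at least 2-fold were made by 4286 genes (20%), 2489 rising (11.6%) and 1797 falling (8.38%), and 266 genes changed at least 10-fold, 178 up and 88 down. In 14272 genes (66.5%) all 3 libraries of one time lay above all 3 of the other. The 10 genes with most reads took 9.06 to 9.86% of the reads at ZT6 and 10.4 to 10.8% at ZT0. TMM scaling put the median change of all tested genes at log2 0.01, whereas scaling by library totals moved it to 0.25 and gave 9899 rising and 4622 falling genes, so changes are read relative to the TMM centre.

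**Figure D1:**
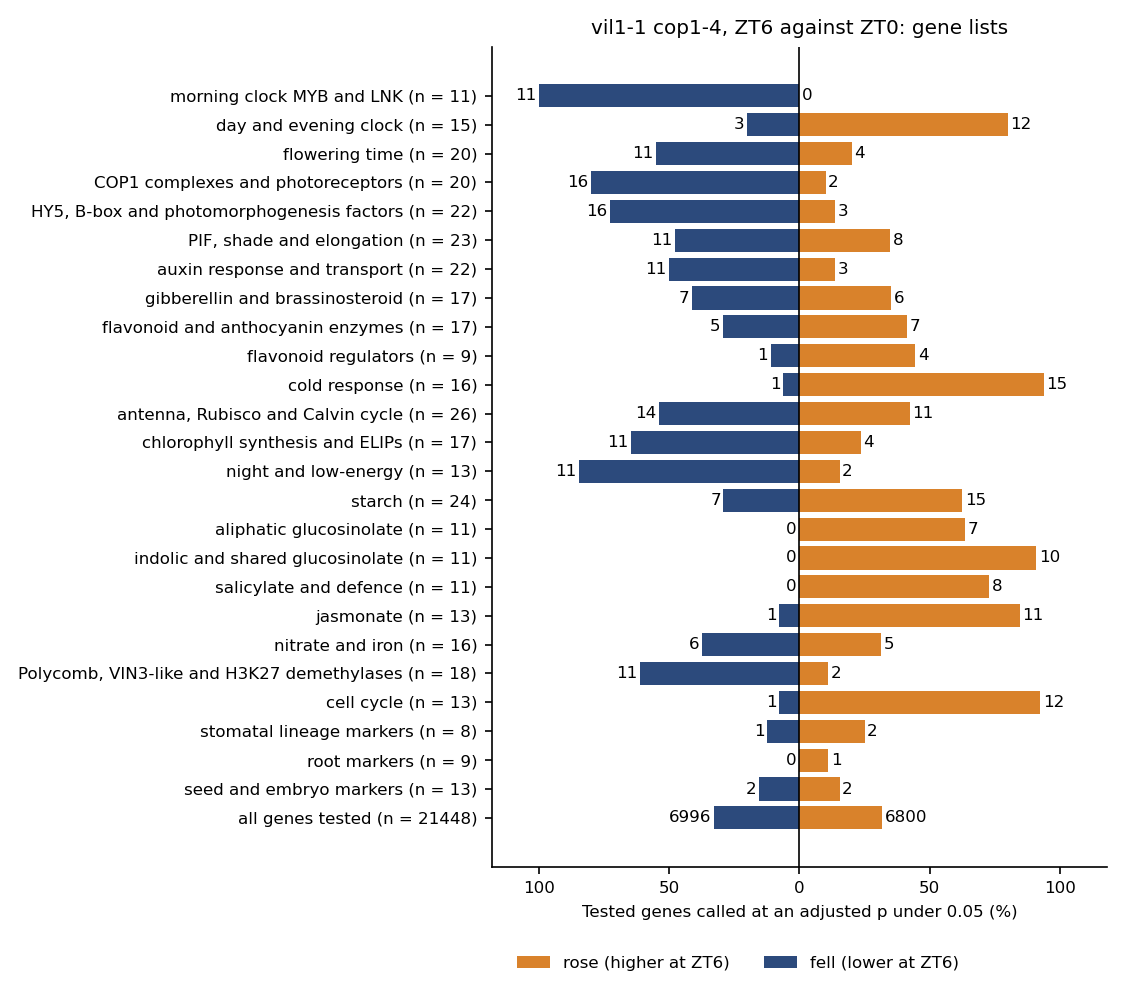
Share of the tested members of each gene list (horizontal axis, percent) that rose (right bar) or fell (left bar) at ZT6 against ZT0 in vil1-1 cop1-4, with all 21448 tested genes in the last row. The morning clock list lies wholly on the falling side, the cold, jasmonate and cell cycle lists mostly on the rising side, and the figures beside the bars are counts of genes.

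Genes of the dawn arm of the clock were lower at ZT6. All 11 tested members of the morning clock list fell, with a median of log2 -4.44, beside 32.6% of all genes. LHY (AT1G01060) had 1.40, 1.24 and 0.897 CPM at ZT6 and 715, 739.9 and 711 CPM at ZT0, a change of log2 -9.27 ± 0.12 (SE, n = 3 each, edgeR adjusted p = 6.4e-38). Its partner CCA1 (AT2G46830) had 3.63, 3.61 and 5.14 CPM at ZT6 and 540.4, 576 and 579 CPM at ZT0, 134-fold lower at ZT6 (edgeR adjusted p = 5.6e-43). In both genes the 3 libraries of a time lay close together and far from those of the other time. RVE8, a MYB-like activator of evening genes, had 1.23, 1.68 and 1.36 CPM at ZT6 and 125, 153 and 156 CPM at ZT0 (103-fold lower), and RVE1, which links the clock to auxin synthesis, was 49.8-fold lower. ASG4, a MYB-like gene of the same family, fell 72.7-fold, to 0.376, 0.495 and 0.340 CPM at ZT6, against 28.3, 29.8 and 28.5 CPM at ZT0. The coactivator gene LNK2 fell 22.01-fold.

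Of the 15 tested genes of the day and evening clock list, 12 rose and 3 fell (31.7% and 32.6% of all genes), with a median of log2 2.52. GI (AT1G22770), a scaffold protein of the blue-light and flowering pathway, had 245, 243 and 237 CPM at ZT6 and 6.19, 3.96 and 4.24 CPM at ZT0, log2 5.68 ± 0.11 (SE, n = 3 each, edgeR adjusted p = 3.7e-29). FKF1 (AT1G68050), the blue-light receptor that pairs with GI, had 109, 103 and 101 CPM at ZT6 and 1.55, 0.822 and 1.02 CPM at ZT0, log2 6.58 ± 0.12. In both genes every ZT6 library stood far above every ZT0 library. The evening complex gene ELF4 (AT2G40080) rose 67.6-fold, to 96.5, 97.5 and 98.8 CPM at ZT6, against 1.66, 1.35 and 1.36 CPM at ZT0. Of its partners, LUX rose 15.3-fold and ELF3 2.07-fold. Among the pseudo-response regulators, which repress CCA1 and LHY, PRR5 (AT5G24470) had 162, 151 and 143 CPM at ZT6 and 5.16, 5.46 and 5.59 CPM at ZT0, 28.1-fold higher at ZT6. PRR3 (AT5G60100) rose 99.9-fold and TOC1 9.95-fold, while PRR7 rose 2.57-fold. PRR9, the earliest of the family in the day, fell, with 2.80, 3.27 and 3.56 CPM at ZT6 and 12.1, 14.0 and 14.4 CPM at ZT0 (log2 -2.07 ± 0.14, edgeR adjusted p = 1.6e-17). The other 2 falling members, ZTL and LKP2, are relatives of FKF1 and fell 2.33-fold and 1.96-fold.

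**Figure D2:**
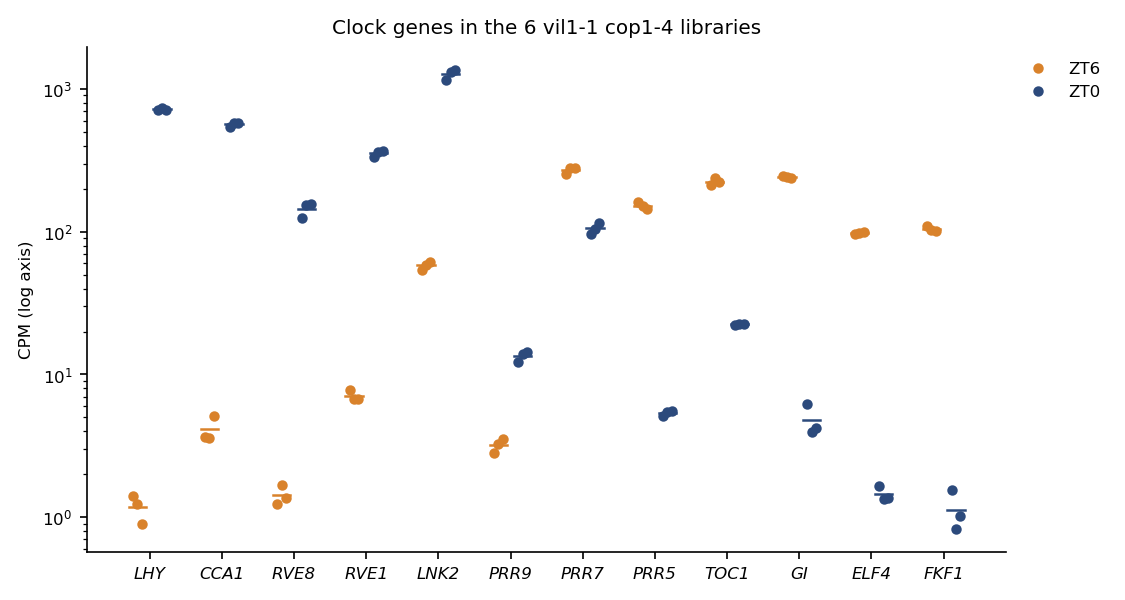
CPM of 12 clock genes in each of the 6 vil1-1 cop1-4 libraries (vertical log axis), 3 points at ZT6 to the left of 3 points at ZT0 for each gene, with a bar at the mean. LHY, CCA1 and RVE8 lie orders of magnitude lower at ZT6 than at ZT0, PRR9 is the only pseudo-response regulator shown that is lower at ZT6, and no gene's groups overlap.

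Most clock genes also moved this way in Col-0, where 10 of the 11 morning genes fell and 1 rose, and 10 of the 15 day and evening genes rose and 3 fell (36.9% of all genes rose and 34% fell in Col-0). RVE8, for example, changed by log2 -6.69 in vil1-1 cop1-4 and -6.50 in Col-0 (difference -0.20 ± 0.20, edgeR adjusted p = 0.43). PRR9 ran against Col-0: it fell by 2.07 in the double mutant and was 1.23 on the log2 scale in Col-0, with 7.25 CPM at ZT6 and 3.08 CPM at ZT0 (means, n = 3), and the difference of the changes was -3.30 ± 0.19 (edgeR adjusted p = 5.3e-18). BOA, a paralogue of LUX, rose here by log2 2.52, with 15.8, 19.1 and 16.4 CPM at ZT6 and 3.09, 2.99 and 2.83 CPM at ZT0, and had a change of -0.23 in Col-0 (difference 2.74 ± 0.20, edgeR adjusted p = 5.5e-15). RVE2 had 57.9, 52.7 and 50.7 CPM at ZT6 and 72.6, 78.1 and 84.5 CPM at ZT0, a change of -0.54, where that of Col-0 was -3.90, with means of 8.18 CPM at ZT6 and 123 CPM at ZT0 (difference 3.36 ± 0.13, edgeR adjusted p = 9.5e-20). The same genes in cop1-4 changed by -2.05 (PRR9), 2.80 (BOA) and -0.58 (RVE2), and in vil1-1 by 0.85, 0.25 and -3.52 in that order. Of the 11 morning genes, 5 changes lay above and 3 below those of Col-0, and of the 15 day and evening genes 6 lay above and 7 below. Against cop1-4, 1 morning gene lay above and 1 day or evening gene below. The background share of all tested genes was 23.1% above and 26.5% below against Col-0, and 2.66% above and 1.82% below against cop1-4.

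The sequences upstream of clock genes carry short elements named for these factors, and 5 windows that hold such elements are shown, chosen with their matches seen, for 2 falling dawn genes, 2 rising clock genes and the cold-response gene COR15A. Windows of 300 bases before the annotated gene start were read from the RefSeq TAIR10.1 genome by locus identifier, each on its gene's strand, and the capitals mark matches on either strand to the evening element (AAAATATCT), the CCA1-binding site (AAAAATCT), the G-box (CACGTG) and the C-repeat core (CCGAC). The evening element and the CCA1-binding site are bound by MYB-like clock factors, the G-box by bZIP and bHLH factors such as HY5 and the PIFs, and the C-repeat by CBF factors. None of the 5 windows overlaps another annotated gene.
LHY (chr1:37872-38171, minus strand): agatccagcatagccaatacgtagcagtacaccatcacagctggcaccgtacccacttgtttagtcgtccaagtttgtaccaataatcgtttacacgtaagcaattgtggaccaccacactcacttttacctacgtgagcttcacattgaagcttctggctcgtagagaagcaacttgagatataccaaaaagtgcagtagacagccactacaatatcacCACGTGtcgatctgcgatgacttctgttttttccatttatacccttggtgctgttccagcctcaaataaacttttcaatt
CCA1 (chr2:19245291-19245590, plus strand): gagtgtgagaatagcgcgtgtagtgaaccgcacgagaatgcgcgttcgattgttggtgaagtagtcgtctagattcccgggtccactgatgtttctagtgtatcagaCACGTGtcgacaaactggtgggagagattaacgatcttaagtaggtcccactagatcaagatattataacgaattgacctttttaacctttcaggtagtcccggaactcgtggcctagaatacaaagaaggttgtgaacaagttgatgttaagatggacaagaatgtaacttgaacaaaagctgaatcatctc
PRR5 (chr5:8358547-8358846, minus strand): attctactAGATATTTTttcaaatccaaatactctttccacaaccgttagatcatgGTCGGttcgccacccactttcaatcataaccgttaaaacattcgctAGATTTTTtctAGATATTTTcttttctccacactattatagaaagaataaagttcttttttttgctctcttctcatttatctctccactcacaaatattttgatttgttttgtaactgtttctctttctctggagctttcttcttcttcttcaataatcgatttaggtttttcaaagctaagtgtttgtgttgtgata
FKF1 (chr1:25508339-25508638, plus strand): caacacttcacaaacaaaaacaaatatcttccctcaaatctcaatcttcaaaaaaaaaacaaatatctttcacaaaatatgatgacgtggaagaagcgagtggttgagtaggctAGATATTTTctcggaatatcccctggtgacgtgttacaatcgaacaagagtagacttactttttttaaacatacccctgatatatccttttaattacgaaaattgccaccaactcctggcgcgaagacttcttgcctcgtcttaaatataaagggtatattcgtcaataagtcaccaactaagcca
COR15A (chr2:17712331-17712630, minus strand): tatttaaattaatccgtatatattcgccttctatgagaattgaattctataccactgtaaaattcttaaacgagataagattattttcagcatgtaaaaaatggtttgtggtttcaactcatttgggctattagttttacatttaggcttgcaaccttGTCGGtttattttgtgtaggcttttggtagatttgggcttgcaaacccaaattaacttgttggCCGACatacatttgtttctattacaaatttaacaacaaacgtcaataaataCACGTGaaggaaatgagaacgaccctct

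The windows of LHY and CCA1, which fell, each hold 1 G-box and no evening element, and the window of PRR5 holds 2 evening elements, 1 CCA1-binding site and 1 C-repeat core. The window of FKF1 holds 1 evening element, and that of the cold-response gene COR15A 1 G-box and 2 C-repeat cores. Among the 12 largest rises 4 windows hold the evening element (PRR5, FKF1, PORB and GRP7), against 2 of the 12 largest falls (COL2 and LEA3), and the G-box is in 2 rises and 6 falls. Over wider sets, the evening element occurs in 7.03% of the windows of genes that rose at least 2-fold (175 of 2489) and 14.0% of those that rose at least 10-fold (25 of 178). It occurs in 1.56% of windows of genes that fell at least 2-fold (28 of 1794), 2.27% of those that fell at least 10-fold (2 of 88), and 2.83% of all windows (607 of 21422). The G-box occurs in 8.48% and 10.8% of windows of genes that rose or fell at least 2-fold and in 8.01% of all windows, the CCA1-binding site in 9.24%, 7.14% and 7.84%, and the C-repeat core in 15.2%, 13.1% and 14.8%. The windows of DREB2C, PRR3, ELF4, GI, ABF1, RVE8, GBSS1 and BBX32, whose changes are also large, hold none of the 4 elements. These shares describe letters in a fixed window, without a test, and a window without a match says nothing of the factor.

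Genes of the COP1 complexes and the photoreceptors fell more often than they rose: of 20 tested, 16 fell and 2 rose, with a median of log2 -0.64, against 32.6% falling and 31.7% rising of all genes. COP1 itself had 17.8, 22.7 and 21.8 CPM at ZT6 and 44.5, 48.4 and 51.5 CPM at ZT0, log2 -1.22 ± 0.08 (SE, n = 3 each, edgeR adjusted p = 2.9e-18), so every ZT6 library lay below every ZT0 library. In Col-0 the change of COP1 was -0.06, and the difference was -1.16 ± 0.10 (edgeR adjusted p = 1.6e-12). COP1 was lower at ZT6 in cop1-4 too, with 20.8, 21.1 and 23.9 CPM at ZT6 and 51.4, 44.7 and 47.3 CPM at ZT0. SPA3 and SPA4, which encode partners of COP1, fell by 2.30 and 2.26 on the log2 scale, beside -1.46 and -1.02 in Col-0. RUP2, a repressor of the UV-B receptor UVR8, had 7.46, 7.13 and 6.96 CPM at ZT6 and 62.2, 64.7 and 58.3 CPM at ZT0 (log2 -3.10, against -1.38 in Col-0, a difference of -1.73 ± 0.13, edgeR adjusted p = 5.1e-15). The far-red receptor gene PHYA fell 2.32-fold, and UVR8 and PHYD were the members that rose, by 0.46 and 0.28 on the log2 scale.

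The transcription factors downstream of COP1 moved in both directions. Of 22 tested members of the HY5, B-box and photomorphogenesis list, 16 fell and 3 rose (median log2 -1.30), beside 32.6% and 31.7% of all genes. HY5 had 9.27, 7.87 and 11.01 CPM at ZT6 and 16.6, 18.5 and 18.8 CPM at ZT0 (log2 -0.92 ± 0.09, edgeR adjusted p = 1.9e-11), and its homologue HYH 6.64, 5.55 and 6.74 CPM at ZT6 and 67.7, 70.0 and 75.9 CPM at ZT0 (log2 -3.48). Neither gene's groups overlap. Among the B-box zinc-finger genes, BBX32 (AT3G21150) fell 45.5-fold, BBX25 17.2-fold and BBX28 3.76-fold, and BBX25 and BBX28 products are known to work against HY5. BBX22, a HY5 partner that promotes photomorphogenesis, went the other way with 97.0, 98.1 and 99.5 CPM at ZT6 and 15.4, 13.6 and 15.3 CPM at ZT0, log2 2.74 ± 0.06 (edgeR adjusted p = 1.8e-33). BBX20 and FHY1 (AT2G37678), a shuttle for phytochrome A, rose by 1.29 and 1.05 on the log2 scale. Set against Col-0, 7 of the 22 changes lay above and 11 below, beside 23.1% and 26.5% of all genes. BBX22 rose less here, by 2.74 beside 3.89 in Col-0 (difference -1.14 ± 0.10, edgeR adjusted p = 2.7e-13), and BBX28 fell more, by 1.91 beside 0.85 (difference -1.06, edgeR adjusted p = 1.1e-14).

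In the flowering list, 11 of 20 tested genes fell and 4 rose (median log2 -0.26, and -0.01 with library totals), beside 32.6% and 31.7% of all genes. COL2 (AT3G02380) and COL1, which encode B-box relatives of CONSTANS, fell 31.3-fold and 25.4-fold, COL2 with 5.68, 5.60 and 6.09 CPM at ZT6 and 182, 183 and 182 CPM at ZT0. CDF2, a repressor of CO, fell 10.2-fold, to 8.82, 9.81 and 8.69 CPM at ZT6, against 90.3, 94.7 and 92.9 CPM at ZT0. CO, the long-day activator, was low, with 2.19, 2.97 and 3.001 CPM at ZT6 and 0.745, 0.673 and 0.678 CPM at ZT0 (log2 1.95, edgeR adjusted p = 5.5e-07). FT, which encodes the florigen, had 54 reads over the 3 ZT6 libraries and 3 over the ZT0 libraries, a ratio of 13.6 with an exact 95% counting interval of 4.42 to 68.1. The repressor gene FLC, a Polycomb target, had 10.4, 13.6 and 11.1 CPM at ZT6 and 12.8, 14.7 and 14.5 CPM at ZT0; its call (log2 -0.28, edgeR adjusted p = 0.011) was lost without ZT0 replicate 2 or 3 or without ZT6 replicate 1 or 3 and with library totals, over adjusted p of 0.0022 to 0.82. TEM2, another repressor of FT, had 166, 165 and 130.0 CPM at ZT6 and 156, 156 and 158 CPM at ZT0, a change of -0.03 that was not called, where Col-0 changed by -2.15 (difference 2.12 ± 0.16, edgeR adjusted p = 8.2e-10).

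Of 23 genes of the PIF, shade and elongation list, 8 rose and 11 fell, and of 22 auxin genes 3 rose and 11 fell (31.7% and 32.6% of all genes). PIF4, a bHLH factor that drives elongation, had 86.0, 80.1 and 94.7 CPM at ZT6 and 31.3, 32.4 and 29.9 CPM at ZT0 (log2 1.48 ± 0.08, edgeR adjusted p = 6.9e-17), and PIF5 82.5, 85.5 and 77.7 CPM at ZT6 and 186, 192 and 187 CPM at ZT0 (log2 -1.20), so these close relatives moved in opposite directions. In Col-0 the changes were 0.65 and -1.54. TAA1, an enzyme of auxin synthesis, rose 3.60-fold, and the shade-response gene PIL1, at 1.23 CPM or less in every library, fell by 3.53 on the log2 scale. Of the auxin genes, IAA14, a repressor of auxin response, had 6.91, 5.94 and 5.72 CPM at ZT6 and 30.6, 31.1 and 28.8 CPM at ZT0 (log2 -2.28, against -1.19 in Col-0). The auxin efflux carrier genes PIN3 and PIN7 changed by -1.95 and 1.32, a fall and a rise. In the gibberellin and brassinosteroid list 6 of 17 rose and 7 fell, near the shares of all genes (31.7% and 32.6%), with a median of log2 -0.04 that turned to 0.21 with library totals. BAS1, which inactivates brassinosteroids, fell 3.35-fold.

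The flavonoid pathway set the double mutant apart from Col-0. Of 17 tested enzyme genes 7 rose and 5 fell in vil1-1 cop1-4 (median log2 0.26, beside 31.7% and 32.6% of all genes). In Col-0 14 rose and 1 fell (median 2.97, beside 36.9% and 34% of all genes). Of the 17 changes 15 lay below those of Col-0 and none above, beside 26.5% and 23.1% of all genes. CHS, chalcone synthase, the entry enzyme, had 169.6, 138 and 168 CPM at ZT6 and 336, 284 and 331 CPM at ZT0 in vil1-1 cop1-4, log2 -0.998 ± 0.15 (SE, n = 3 each, edgeR adjusted p = 7.6e-06). In Col-0 it had 414, 421 and 401 CPM at ZT6 and 14.0, 9.47 and 10.5 CPM at ZT0. The time changes of CHS therefore ran in opposite directions, and their difference was -6.18 ± 0.24 (edgeR adjusted p = 3.7e-14). At ZT6 each double mutant library stood below each Col-0 library, and at ZT0 each stood far above. FLS1, flavonol synthase, rose by 1.001, with 45.9, 34.4 and 43.0 CPM at ZT6 and 21.1, 19.0 and 22.2 CPM at ZT0, beside 5.88 in Col-0 (difference -4.88, edgeR adjusted p = 2.5e-11). UGT79B1, an anthocyanin glycosyltransferase, fell by 2.71, with 0.342, 0.347 and 0.495 CPM at ZT6 and 2.52, 2.36 and 3.16 CPM at ZT0, and changed by 5.68 in Col-0 (difference -8.39 ± 0.47, edgeR adjusted p = 1.1e-18). MYB12, an activator of flavonol genes, rose by 0.63 here and 3.37 in Col-0 (difference -2.74, edgeR adjusted p = 3.6e-11). PAP1 (AT1G56650), a MYB activator of anthocyanin genes, had 13 reads over the ZT6 libraries and 0 over the ZT0 libraries, at least 3.28-fold higher against a floor of 3 reads over the ZT0 libraries. cop1-4 kept close to the double mutant here (CHS -0.91, FLS1 1.101, UGT79B1 -2.47) and vil1-1 to Col-0 (CHS 4.97, FLS1 4.47, UGT79B1 3.84).

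**Figure D3:**
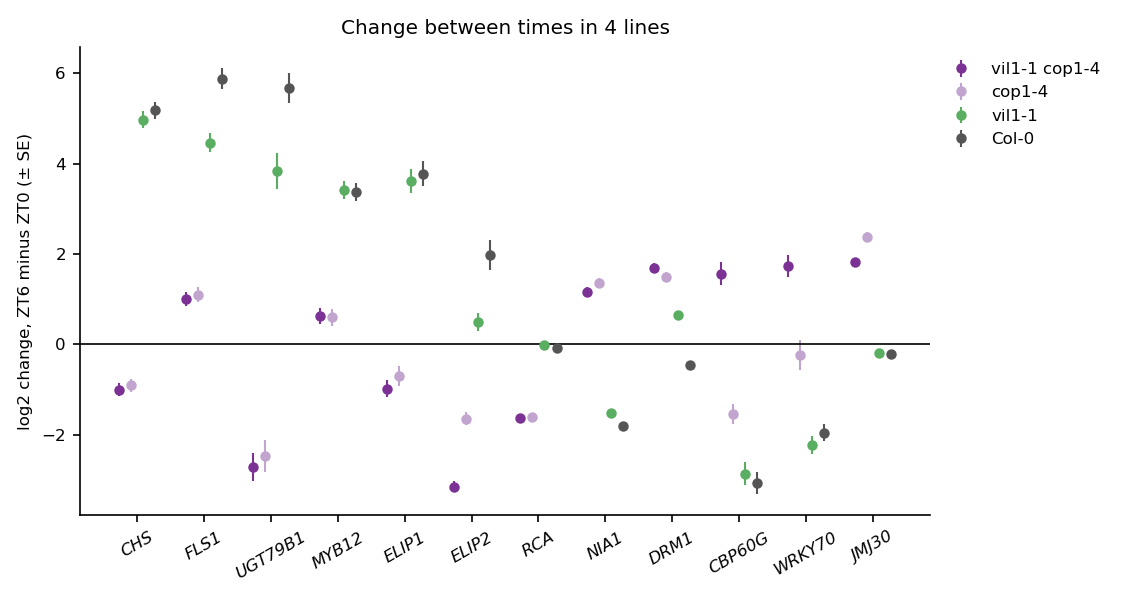
Log2 change, ZT6 minus ZT0, with its standard error (vertical axis) for 12 genes in vil1-1 cop1-4, cop1-4, vil1-1 and Col-0, n = 3 libraries per line and time. CHS, UGT79B1, ELIP1 and ELIP2 lie below 0 in both lines with cop1-4 and above 0 in vil1-1 and Col-0, FLS1 and MYB12 are above 0 in every line but lower in the lines with cop1-4, and CBP60G lies above 0 in vil1-1 cop1-4 alone.

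The early light-induced proteins, which bind chlorophyll during light stress, showed the same contrast. ELIP2 had 16.4, 14.0 and 15.2 CPM at ZT6 and 136, 134 and 135 CPM at ZT0 in vil1-1 cop1-4, log2 -3.15 ± 0.12 (edgeR adjusted p = 9.6e-18), against 1.58, 2.43 and 2.46 CPM at ZT6 and 0.374, 0.474 and 0.744 CPM at ZT0 in Col-0 (difference -5.13 ± 0.34, edgeR adjusted p = 2.5e-12). ELIP1 fell by 0.98 and changed by 3.77 in Col-0 (difference -4.75, edgeR adjusted p = 3.3e-11). ELIP2 also set the double mutant apart from cop1-4, which had a mean of 8.01 CPM at ZT6 and 25.1 CPM at ZT0 (difference -1.50 ± 0.19, edgeR adjusted p = 2.9e-05). Of the 17 genes of chlorophyll synthesis and ELIPs, 11 fell and 4 rose, beside 32.6% and 31.7% of all genes. PORB, a light-dependent protochlorophyllide oxidoreductase, led the rising ones with 657, 545 and 557 CPM at ZT6 and 15.2, 16.2 and 14.97 CPM at ZT0 (log2 5.24 ± 0.09, against 3.51 in Col-0). The regulator GUN4 and HEMA1, the first enzyme of tetrapyrrole synthesis, fell 5.40-fold and 3.73-fold, and CAO (AT1G44446), which makes chlorophyll b, 3.78-fold.

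Of 26 tested antenna, Rubisco and Calvin cycle genes, 11 rose and 14 fell (31.7% and 32.6% of all genes). Their median of log2 -0.21 became 0.04 with library totals. The antenna genes LHCB3, LHCA4 and LHCA1 rose by 2.11, 1.49 and 1.301 on the log2 scale, LHCB3 with 2520.3, 2086 and 2041 CPM at ZT6 and 540.4, 530.4 and 467 CPM at ZT0. Other antenna genes fell, LHCB7 by 1.68 and LHCB2.1 by 0.98, LHCB2.1 with 1619, 1193 and 1349 CPM at ZT6 and 2868, 2708 and 2620.4 CPM at ZT0, so the antenna genes moved in both directions. The Calvin cycle gene GAPA had 2534, 2416 and 2257 CPM at ZT6 and 8473, 8488 and 8463 CPM at ZT0 (log2 -1.82 ± 0.06, edgeR adjusted p = 5.8e-29), and PRK fell by 0.89. The Rubisco small subunit gene RBCS2B changed by 0.02 and was not called (edgeR adjusted p = 0.79), but was called with library totals, where every gene shifts up, at 0.27 (adjusted p of 4.5e-06 to 0.81 over the alternatives). RCA, Rubisco activase, had 10219, 9222 and 9295 CPM at ZT6 and 29529, 29485 and 29116 CPM at ZT0, a fall of 1.62 on the log2 scale, where Col-0 changed by -0.08 (difference -1.54 ± 0.08, edgeR adjusted p = 2.4e-19). The mesophyll marker sum given above, of which RCA is a member, was also lower at ZT6, and its part in these changes was not tested. The LHCB1 genes are near-identical copies whose reads the counting could split, so they are not named singly.

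Of 24 tested starch genes, 15 rose and 7 fell (31.7% and 32.6% of all genes), with a median of log2 1.40. The plastidial and cytosolic phosphorylase genes PHS1 (AT3G29320) and PHS2 (AT3G46970) rose 18.4-fold and 28.8-fold, PHS2 with 565, 533 and 509 CPM at ZT6 and 17.3, 19.1 and 19.3 CPM at ZT0. The debranching enzyme gene ISA3 had 72.4, 74.1 and 77.4 CPM at ZT6 and 5.16, 5.12 and 5.31 CPM at ZT0 (log2 3.85 ± 0.09, edgeR adjusted p = 2.7e-33), the disproportionating enzyme gene DPE1 rose 11.9-fold and the amylase gene AMY3 9.78-fold. These genes of starch breakdown rose together, with no overlap of the times in any of them. GBSS1 (AT1G32900), the granule-bound synthase that makes amylose, had 2.87, 3.27 and 3.496 CPM at ZT6 and 268, 273 and 249 CPM at ZT0 (log2 -6.35 ± 0.13, against -3.53 in Col-0, a difference of -2.83, edgeR adjusted p = 1.1e-12). In cop1-4 GBSS1 had 3.23, 3.64 and 2.99 CPM at ZT6 and 244, 281 and 262 CPM at ZT0, near the double mutant. BAM9 (AT5G18670), a beta-amylase relative without catalytic activity, had 15.4, 15.2 and 15.7 CPM at ZT6 and 627, 602 and 622 CPM at ZT0, 40.0-fold lower at ZT6. BAM1 (AT3G23920) and BAM3 (AT4G17090), active beta-amylases, fell 3.32-fold and 2.15-fold. Of the 24 changes 15 lay below and 2 above those of Col-0, beside 26.5% and 23.1% of all genes. AMY3, for example, stood at 3.29 beside 4.52 (difference -1.23, edgeR adjusted p = 1.7e-14).

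Genes that mark the night and low energy fell in 11 of 13 cases and rose in 2 (32.6% and 31.7% of all genes). Their median was log2 -1.39, where Col-0 had -2.21. Of the 13 changes, 11 lay above those of Col-0 and none below, beside 23.1% and 26.5% of all genes. The trehalose-phosphate synthase-like genes TPS8 and TPS9 changed by -1.40 and -1.40 here, beside -2.16 and -2.25 in Col-0 (differences 0.76 and 0.85, edgeR adjusted p = 6.3e-09 and 6.6e-08). DRM1 (AT1G28330), a dormancy-associated gene that marks low sugar, rose, with 322, 381 and 324 CPM at ZT6 and 110.0, 99.97 and 108 CPM at ZT0, against means of 85.9 CPM at ZT6 and 118.4 CPM at ZT0 in Col-0 (difference 2.15 ± 0.14, edgeR adjusted p = 2.4e-11). In cop1-4 DRM1 had 270, 313 and 269 CPM at ZT6 and 94.7, 99.5 and 107 CPM at ZT0, also higher at ZT6. It was higher at ZT6 in vil1-1 as well, with 230, 211 and 208 CPM at ZT6 and 138, 151 and 126 CPM at ZT0. Nitrate and iron genes rose in 5 and fell in 6 of 16 cases, near the shares of all genes (31.7% and 32.6%). NIA1, a nitrate reductase, had 1223, 1277 and 1052 CPM at ZT6 and 531, 516 and 531 CPM at ZT0 in the double mutant, a rise of 1.17 on the log2 scale. In Col-0 it had 156, 127 and 146 CPM at ZT6 and 545, 485 and 478 CPM at ZT0, a change of -1.81, so the direction was opposite (difference 2.98 ± 0.14, edgeR adjusted p = 5.4e-14). NIA1 was higher at ZT6 in cop1-4 too, with 1414, 1428 and 1396 CPM at ZT6 and 531, 572 and 540 CPM at ZT0. NIA2, the other nitrate reductase gene, fell in both, by 1.48 in vil1-1 cop1-4 and 3.18 in Col-0. The iron store gene FER1, encoding ferritin, fell 3.53-fold. The nitrate transporter gene NRT2.1 had 125 reads over the ZT6 libraries and 0 over the ZT0 libraries, at least 31.6-fold higher against a floor of 3 reads over the ZT0 libraries.

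Cold-response genes rose in 15 of 16 cases and fell in 1 (median log2 1.84, 2.40 in Col-0), although the plants stood at 22 °C at both times. Of all genes 31.7% rose and 32.6% fell. COR15A (AT2G42540), whose product stabilises chloroplast membranes, had 87.2, 71.0 and 86.9 CPM at ZT6 and 1.38, 1.53 and 0.678 CPM at ZT0 (log2 6.04 ± 0.22, edgeR adjusted p = 9.3e-16), and its tandem copy COR15B (AT2G42530) rose by 7.44 on the log2 scale (8.09 without ZT0 replicate 1); the copies are alike, and the counting could split their reads. CBF3, one of the factors that bind the C-repeat, had 412 reads over the ZT6 libraries and 3 over the ZT0 libraries, a ratio of 104 (exact 95% counting interval 35.3 to 506). ERD10, a dehydrin, rose 3.63-fold and COR413-PM1 3.52-fold. GOLS3, a galactinol synthase gene, was the member that fell, with 0.616, 0.347 and 0.309 CPM at ZT6 and 0.802, 1.53 and 0.961 CPM at ZT0.

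Jasmonate genes rose in 11 of 13 cases and fell in 1 (median log2 2.05), beside 31.7% and 32.6% of all genes. AOC2, allene oxide cyclase, had 306, 243 and 239 CPM at ZT6 and 17.2, 17.6 and 15.7 CPM at ZT0 (log2 3.96 ± 0.13, edgeR adjusted p = 1.4e-16), LOX3 rose 4.15-fold and the vegetative storage protein gene VSP2 4.79-fold. JAZ1, a repressor of the pathway, rose 4.87-fold. The falling call was that of JAZ5 (log2 -0.84, edgeR adjusted p = 0.045), which was lost without ZT0 replicate 1 or 3, without ZT6 replicate 2 or 3 and in 6 of the other alternatives, over adjusted p of 0.045 to 0.18. The glucosinolate lists serve defence against herbivores. Of 11 indolic and shared genes 10 rose and none fell (median log2 1.48). Of 11 aliphatic genes 7 rose and none fell (median 1.501, against 4.87 in Col-0), but several of the 11 were low in the double mutant at both times. MAM1 had 1.23, 0.347 and 0.433 CPM at ZT6 and 0.516, 0.112 and 0.170 CPM at ZT0, against 196, 262 and 212 CPM at ZT6 in Col-0. CYP79F1 had 1 read over the ZT6 libraries and 0 over the ZT0 libraries. MYB28 was not near the floor, with 17.6, 13.1 and 16.8 CPM at ZT6 and 7.56, 10.2 and 8.14 CPM at ZT0. CYP83B1 of the indolic branch had 233, 288 and 228 CPM at ZT6 and 59.9, 49.1 and 52.3 CPM at ZT0 (log2 2.22 ± 0.12), and the sulfotransferase gene SOT16 rose 4.28-fold. MYB29, a regulator of the aliphatic branch, had 50 reads over the ZT6 libraries and 0 over the ZT0 libraries, at least 12.6-fold higher against the same floor of 3 reads. BCAT4, the first enzyme of that branch, was near 0 in vil1-1 cop1-4, with 0.274, 0.149 and 0.278 CPM at ZT6 and 0.172, 0.262 and 0 CPM at ZT0, against 44.6, 73.0 and 59.6 CPM at ZT6 and 0.112, 0.301 and 1.19 CPM at ZT0 in Col-0.

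Salicylate and defence genes rose in 8 of 11 cases and fell in none (median log2 1.37), beside 31.7% and 32.6% of all genes. In Col-0 2 rose and 8 fell (median -0.49), beside 36.9% and 34% of all genes. CBP60G, an activator of salicylate synthesis, had 18.7, 23.5 and 20.7 CPM at ZT6 and 6.25, 6.43 and 8.64 CPM at ZT0 in vil1-1 cop1-4 (log2 1.57 ± 0.25, edgeR adjusted p = 1.5e-05). It had 12.6, 14.4 and 12.4 CPM at ZT6 and 57.9, 31.3 and 25.3 CPM at ZT0 in cop1-4, 4.03, 4.23 and 3.66 CPM at ZT6 and 27.1, 29.8 and 30.2 CPM at ZT0 in vil1-1, and 4.49, 5.04 and 5.95 CPM at ZT6 and 40.1, 44.9 and 44.9 CPM at ZT0 in Col-0. In the double mutant the ZT6 libraries lay above the ZT0 libraries, and in the other 3 lines the ZT0 libraries lay above the ZT6 libraries. Differences of the changes were 3.099 ± 0.33 against cop1-4 (edgeR adjusted p = 1.3e-05) and 4.63 ± 0.34 against Col-0 (edgeR adjusted p = 7.2e-10). WRKY70, a node between salicylate and jasmonate signalling, had 6.81, 7.53 and 7.39 CPM at ZT6 and 1.60, 2.47 and 2.32 CPM at ZT0, log2 1.74, against changes of -0.23 in cop1-4 and -1.95 in Col-0 (difference against cop1-4 1.97 ± 0.41, edgeR adjusted p = 0.0043). The pathogenesis-related gene PR5 rose 11.4-fold. A strong rise within the list was not confined to this line: its highest change was log2 3.51 here, 2.43 in cop1-4, 3.59 in vil1-1 and 3.24 in Col-0. PR1 and PR2 were under the filter with 8 and 27 reads over the ZT6 libraries and 26 and 8 over the ZT0 libraries.

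**Figure D4:**
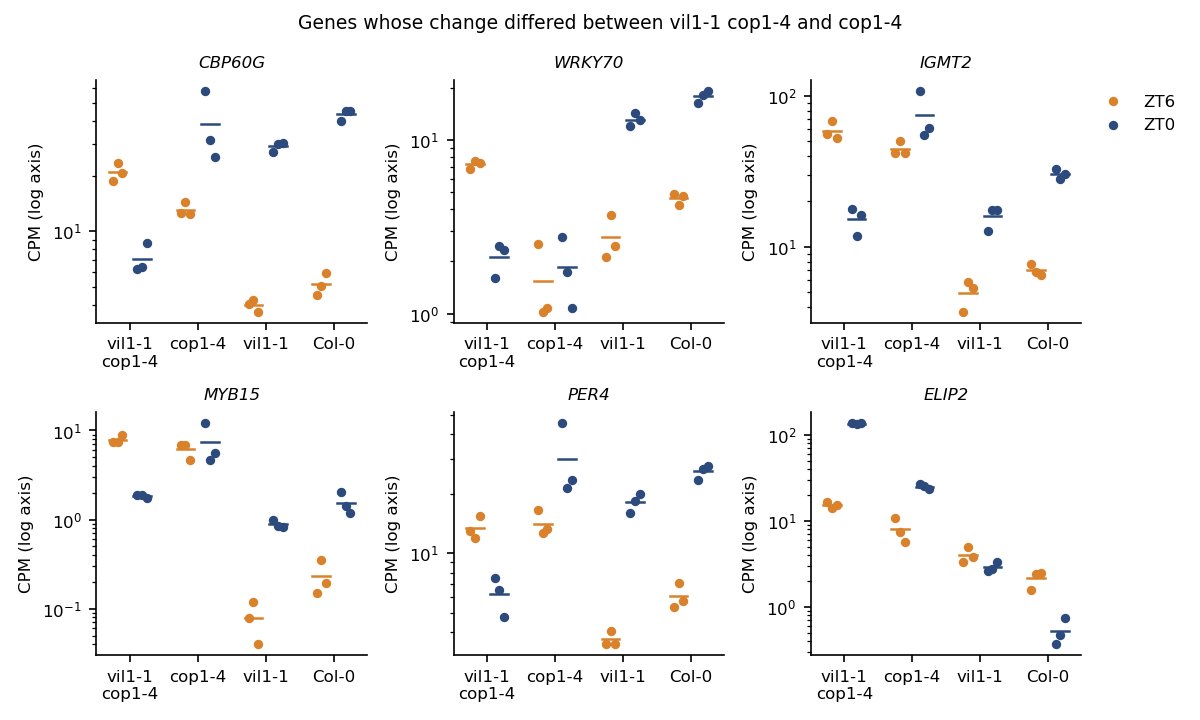
CPM of CBP60G, WRKY70, IGMT2, MYB15, PER4 and ELIP2 in every library of vil1-1 cop1-4, cop1-4, vil1-1 and Col-0 (vertical log axis, ZT6 points left of ZT0 points, bar at the mean). The vil1-1 cop1-4 ZT0 libraries lie below the cop1-4 ZT0 libraries for CBP60G, IGMT2, MYB15 and PER4, above them for ELIP2, and among them for WRKY70.

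Cell cycle genes rose in 12 of 13 cases (median log2 1.41), beside 31.7% of all genes. Among them was PCNA1, the sliding clamp of DNA replication, with 11.05, 9.61 and 10.5 CPM at ZT6 and 2.35, 2.24 and 0.961 CPM at ZT0 (log2 2.46 ± 0.17, edgeR adjusted p = 7.2e-16). The helicase subunit genes MCM5 and MCM7 rose 2.75-fold and 2.81-fold and the mitotic kinase gene CDKB2;1 2.60-fold. AUR1, an Aurora kinase, was the exception with 8.24, 8.22 and 10.05 CPM at ZT6 and 12.95, 11.6 and 9.27 CPM at ZT0, groups that overlap, and its call (log2 -0.34, edgeR adjusted p = 0.018) was lost without ZT0 replicate 1 or 2, without ZT6 replicate 1 or 2, and with library totals, over adjusted p of 0.006 to 0.56. In Col-0 it changed by 1.64 (difference -1.98 ± 0.18, edgeR adjusted p = 2e-12). Of 18 tested Polycomb, VIN3-like and H3K27 demethylase genes, 11 fell and 2 rose (median log2 -0.22, and 0.03 with library totals), beside 32.6% and 31.7% of all genes. VIL1 changed by 0.08 ± 0.12 (edgeR adjusted p = 0.61), with overlapping groups; with library totals, where every gene shifts up, it changed by 0.33 (edgeR adjusted p 0.02 to 0.79 over the alternatives). Its relative VEL1 had 83.1, 82.0 and 82.0 CPM at ZT6 and 252, 261 and 264 CPM at ZT0, 3.14-fold lower, and SWN, a histone methyltransferase of the same complex, fell 2.19-fold. JMJ30, a clock-regulated H3K27 demethylase, rose, with 37.8, 44.7 and 44.1 CPM at ZT6 and 11.5, 11.9 and 12.1 CPM at ZT0 (log2 1.83 ± 0.09), where Col-0 changed by -0.21 (difference 2.04 ± 0.12, edgeR adjusted p = 5.7e-18). JMJ30 was higher at ZT6 in cop1-4 too, with 36.9, 34.8 and 31.8 CPM at ZT6 and 7.22, 6.31 and 6.34 CPM at ZT0. VIN3 stayed under the filter with 16 reads at ZT6 and 1 at ZT0. Among marker lists, 1 of 9 root genes rose (CASP1, by 0.59), 2 of 8 stomatal genes rose and 1 fell, and 2 of 13 tested seed and embryo genes rose and 2 fell. These marker counts lay below the shares of all genes, 31.7% rising and 32.6% falling.

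Several of the largest changes fell outside these lists. GRP7 (AT2G21660), a clock-controlled RNA-binding protein gene, had 3048, 3267 and 3292 CPM at ZT6 and 84.0, 79.8 and 85.6 CPM at ZT0 (log2 5.27 ± 0.08, edgeR adjusted p = 2.4e-39). DREB2C (AT2G40340), a heat- and drought-related transcription factor, had 1277 reads over the ZT6 libraries and 2 over the ZT0 libraries, a ratio of 483 (exact 95% counting interval 133 to 3996). ABF1 (AT1G49720), a bZIP factor of abscisic acid response, rose 26.7-fold. Of the falling genes, ABCF2 (AT5G09930), an ABC protein gene, had 0.0342, 0 and 0.186 CPM at ZT6 and 11.1, 10.9 and 12.7 CPM at ZT0, -7.00 on the log2 scale (-8.80 without ZT6 replicate 3). SULTR3;1 (AT3G51895), a sulfate transporter gene, had 1.54, 1.09 and 1.299 CPM at ZT6 and 38.8, 42.1 and 39.3 CPM at ZT0, log2 -4.91, against -1.34 in Col-0 (difference -3.57 ± 0.18, edgeR adjusted p = 2.4e-20). LEA3 (AT1G02820), a late embryogenesis abundant protein gene, fell by 4.70, beside -0.67 in Col-0 (difference -4.03, edgeR adjusted p = 7.6e-10). LEA3 stood at 4.51, 3.91 and 4.36 CPM at ZT6 in the double mutant and 3.09 CPM on average in Col-0, and at 119, 110.4 and 107 CPM at ZT0 in the double mutant and 4.86 CPM in Col-0.

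Across all genes, the time change of vil1-1 cop1-4 was closest to that of cop1-4. Pearson's r over the 21448 genes, which are not independent replicates, was 0.830 with cop1-4, 0.638 with vil1-1 and 0.622 with Col-0 (Spearman's rho 0.838, 0.604 and 0.594), with no library shared between the lines. Of 11754 genes called in both vil1-1 cop1-4 and cop1-4, 11647 changed in the same direction. Of 11154 called in both vil1-1 cop1-4 and Col-0, 9510 did, while 632 rose here and fell in Col-0 and 1012 fell here and rose in Col-0. Tests of the difference called 961 genes (4.48%) against cop1-4, 10638 (49.6%) against Col-0 and 9876 (46%) against vil1-1. Against vil1-1, 4536 changes lay above (21.1%) and 5340 below (24.9%). Of the 961, 570 lay above the change of cop1-4 and 391 below, and at 2-fold or more 249 (1.16%) and 44 (0.205%). In cop1-4 30.2% of genes rose and 33.4% fell.

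The largest differences from Col-0 and from vil1-1, up to 6 genes on each side, included defence and stress genes above and aliphatic glucosinolate and flavonoid genes below. CCOAMT had 15.5, 15.2 and 13.2 CPM at ZT6 and 4.298, 4.82 and 6.38 CPM at ZT0 in vil1-1 cop1-4, where Col-0 averaged 1.35 CPM at ZT6 and 13.1 CPM at ZT0 (difference 4.74 ± 0.35, edgeR adjusted p = 2.1e-10). The glutathione transferase gene GSTF6 had 414, 509 and 433 CPM at ZT6 and 112, 76.9 and 99.6 CPM at ZT0 in the double mutant, against means of 33.2 CPM at ZT6 and 134 CPM at ZT0 in Col-0. Both genes thus had their high time at ZT6 in the double mutant and at ZT0 in Col-0. GSTF6 differed by 4.25 from Col-0 and 4.13 from vil1-1, its relative GSTF3 by 4.63 from Col-0, the calmodulin-like gene TCH3 by 4.14 from Col-0, and XBAT34, an ankyrin-repeat RING protein gene, by 4.096 from Col-0 and 4.53 from vil1-1. CYP71A12, a cytochrome P450 gene of indolic defence compounds, and PLA2A, a patatin-like lipase gene, differed from vil1-1 by 4.68 and 4.301 (CBP60G by 4.43 and CCOAMT by 4.13). On the other side stood aliphatic glucosinolate genes: the transporter gene BAT5 had 0.205, 0.198 and 0.526 CPM at ZT6 and 0.630, 0.785 and 0.509 CPM at ZT0, where Col-0 averaged 44.5 CPM at ZT6 and 1.43 CPM at ZT0 (difference -5.95 ± 0.47, edgeR adjusted p = 3.6e-14, and -6.57 without vil1-1 cop1-4 ZT6 replicate 3). FMO GS-OX1, which oxidises the side chain, differed by -6.92 and IPMI1, an isomerase gene of chain elongation, by -5.92 from Col-0, and IPMI2 by -5.01 from vil1-1. The difference of BCAT4 from Col-0, -6.16, was called (edgeR adjusted p = 0.0062) but lost without vil1-1 cop1-4 ZT0 replicate 2 (edgeR adjusted p of 6.4e-07 to 0.16 over the alternatives, with -7.58 without Col-0 ZT0 replicate 3). SQP1, a squalene epoxidase-like gene, had 40.3, 31.2 and 43.3 CPM at ZT6 and 208, 203 and 195 CPM at ZT0 in the double mutant, and means of 28.1 CPM at ZT6 and 4.71 CPM at ZT0 in vil1-1 (difference -4.97 ± 0.13, edgeR adjusted p = 6.9e-26). The glycosyltransferase gene UGT73C1 differed from vil1-1 by -5.14, ELIP1 by -4.60 and CHS by -5.97. CHAT, an acetyltransferase gene of leaf volatiles, had 8.69, 10.3 and 9.40 CPM at ZT6 and 26.6, 27.3 and 32.7 CPM at ZT0 in the double mutant and next to no reads in Col-0, with 7 at ZT6 and 0 at ZT0 over 3 libraries each. CHAT was read in cop1-4 too, with 6.61, 5.74 and 7.37 CPM at ZT6 and 16.9, 15.2 and 15.2 CPM at ZT0.

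**Figure D5:**
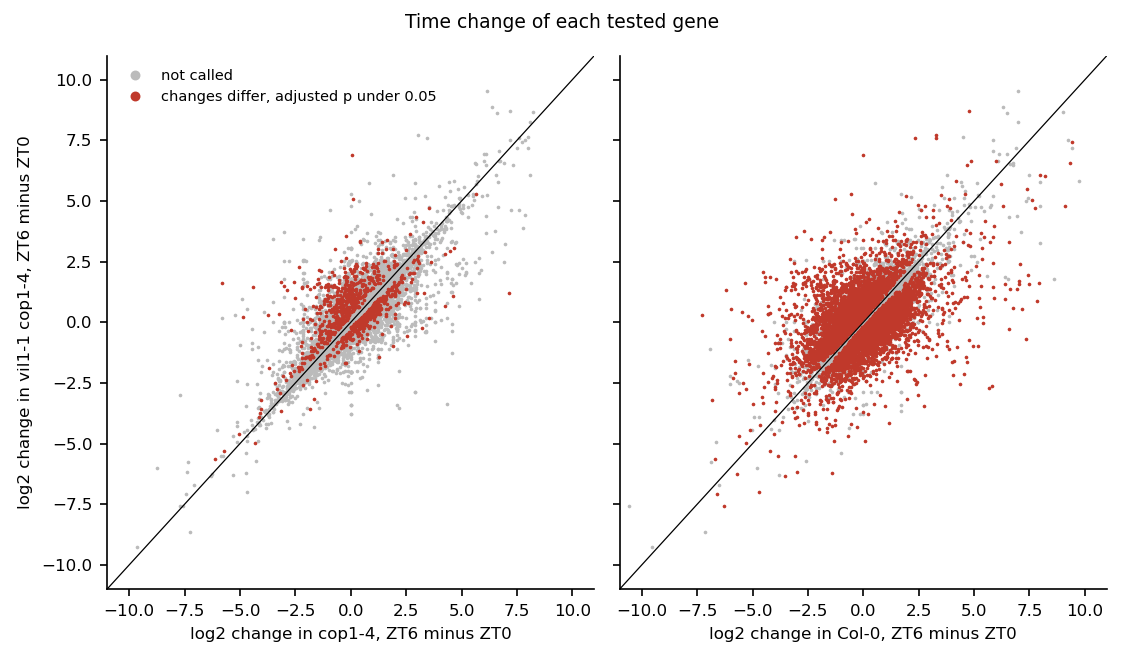
Log2 change, ZT6 minus ZT0, of 21448 genes in vil1-1 cop1-4 (vertical axes) against that in cop1-4 (left) and Col-0 (right), 1 point per gene, with genes whose changes differ at an edgeR adjusted p under 0.05 in colour. The points hug the diagonal against cop1-4 (961 coloured) and spread around it against Col-0 (10638 coloured).

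The number of differences from cop1-4 leaned on single libraries. Without cop1-4 ZT0 replicate 1 the genes above fell to 350, without vil1-1 cop1-4 ZT0 replicate 2 to 354 and without cop1-4 ZT6 replicate 3 to 367, and without vil1-1 cop1-4 ZT6 replicate 1 the genes below numbered 609. A fit on the compared groups alone gave 337 above. Genes named here were called in every one of these alternatives unless said otherwise. Above cop1-4 stood IGMT2, an indole glucosinolate methyltransferase gene, with 55.9, 68.1 and 53.0 CPM at ZT6 and 17.8, 11.8 and 16.2 CPM at ZT0 in vil1-1 cop1-4 and 41.7, 50.2 and 42.2 CPM at ZT6 and 108, 55.2 and 61.4 CPM at ZT0 in cop1-4 (difference 2.71 ± 0.32, edgeR adjusted p = 3.5e-05). MYB15, a stress-induced regulator of phenylpropanoid genes, had 7.46, 7.38 and 8.85 CPM at ZT6 and 1.89, 1.91 and 1.75 CPM at ZT0, against 6.95, 6.82 and 4.67 CPM at ZT6 and 12.04, 4.64 and 5.59 CPM at ZT0 in cop1-4 (difference 2.36 ± 0.35, edgeR adjusted p = 4.6e-05). In both genes the double mutant libraries lay above the cop1-4 libraries at ZT6 and below them at ZT0; cop1-4 ZT0 replicate 1 was the highest of its group in both. Chosen by the same rule were GLP9, a germin-like protein gene (4.79), CCOAMT, a methyltransferase gene of lignin-type phenolics (2.39), and PER4, a peroxidase gene (2.19), with edgeR adjusted p of 6.1e-06, 6.1e-05 and 0.0006. GLP9 had 2.57, 2.67 and 1.70 CPM at ZT6 and 0.745, 0.523 and 0.961 CPM at ZT0 in vil1-1 cop1-4. Its levels in cop1-4 were 1.26, 2.97 and 1.54 CPM at ZT6 and 22.9, 15.2 and 12.4 CPM at ZT0. Most of the GLP9 difference is thus the fall in cop1-4. Without cop1-4 ZT0 replicate 1 the differences were 2.65 (CBP60G), 2.33 (IGMT2), 1.81 (MYB15) and 1.75 (PER4).

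Below cop1-4 by the same rule stood ELIP2, already described, and 5 genes of other roles. WAK2, a wall-associated kinase gene, had 22.5, 21.0 and 19.6 CPM at ZT6 and 3.15, 3.14 and 2.54 CPM at ZT0 in vil1-1 cop1-4, against 18.3, 15.6 and 20.1 CPM at ZT6 and 1.55, 0.614 and 0.752 CPM at ZT0 in cop1-4 (difference -1.41 ± 0.30, edgeR adjusted p = 0.0032). CLH1, a chlorophyllase gene, had a mean of 49.2 CPM at ZT6 and 33.6 CPM at ZT0, against 35.3 CPM at ZT6 and 11.8 CPM at ZT0 in cop1-4 (difference -1.02, edgeR adjusted p = 4.4e-05). In both genes, as in ELIP2, the double mutant was the higher at ZT0. GPAT3, MIOX1 and PPCK1 had differences of -1.01, -0.99 and -0.98. Of 24 starch genes 1 lay above cop1-4 and none below, and 0 of 26 antenna, Rubisco and Calvin cycle genes lay on either side, counts near the background of 2.66% above and 1.82% below. In the indolic glucosinolate list 5 of 11 lay above cop1-4 and in the salicylate and defence list 6 of 11, beside 2.66% of all genes, and none of either list lay below. Of these, WRKY70, CBP60G, FMO1 and SOT16 (the last with a difference of 1.03 ± 0.13, edgeR adjusted p = 7.8e-06) were called in each alternative, whereas ICS1, PBS3, CYP81F2, CYP83B1 and MYB51 missed the threshold in the fit on the compared groups alone, CYP79B3 there and in several others, and SARD1 without cop1-4 ZT0 replicate 1 or vil1-1 cop1-4 ZT0 replicate 2.

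Counts of some genes carry an uncertainty of annotation. The symbols BAM1, BAM3, CAO, DRM1, FHY1, PAP1 and PHS1 each name more than 1 locus and stand here for the locus printed beside them. Of 151 genes named, 44 overlap another annotated gene on the chromosome. Whether the counting used strand was not given in the sources used here, so reads of a neighbour could be among theirs: ABCF2, ABF1, ASG4, AUR1, BAM3, BAM9, BBX20, BBX25, BBX32, BCAT4, BOA, CAO, CASP1, CBF3, CDKB2;1, CHS, CO, COL1, COL2, COR15B, ELF3, FER1, FKF1, FLC, GAPA, GUN4, LHCA4, LHCB3, LKP2, LNK2, LUX, MCM7, PHS1, PHS2, PORB, PPCK1, PRK, RCA, RVE1, SARD1, SPA3, SPA4, TCH3 and WAK2.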

How the data were processed

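Libraries were grouped by their titles. Per the submitters' processing notes, reads were checked with FastQC, aligned with STAR to TAIR10 and analysed with edgeR, with no versions given. The deposited values are raw read counts per gene, 32678 identifiers and 5 lines naming no gene, which were left out and held the rest of the reads. Symbols came from RefSeq TAIR10.1 (31912 matched). Counts of all 27 libraries in 9 groups entered 1 edgeR quasi-likelihood fit (edgeR 4.0.16, R 4.3.3) with TMM, filterByExpr and Benjamini-Hochberg adjustment at 0.05. The scripts were tested on simulated data. Alternatives were DESeq2 size factors, library totals, no filter, at least 1 CPM in 3 libraries, the DESeq2 test (1.42.0), the compared groups alone, a replicate block and leaving out each library. Genes were named by size: the 12 largest rises and falls and 6 largest differences each way with a mean of at least 5 CPM, and 4 members per list and direction; others were chosen after their values were seen. Members and lists were chosen with earlier results of these data known.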

Additional observations from a re-analysis of the deposited data

Results flagged for a closer look

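The time change of the genes below differed between vil1-1 cop1-4 and another line in the edgeR test of the difference itself, at an adjusted p under 0.05 over all genes tested, and this is what brought each of them here. Values are the change in the double mutant minus the change in the other line, on the log2 scale of fitted levels, with 3 libraries per line and time. Above the change of Col-0 lay CCOAMT 4.74, CBP60G 4.63, GSTF3 4.63, GSTF6 4.25, TCH3 4.14, XBAT34 4.096, RVE2 3.36, NIA1 2.98, BOA 2.74, DRM1 2.15, TEM2 2.12, JMJ30 2.04, TPS9 0.85 and TPS8 0.76. Below the change of Col-0 lay UGT79B1 -8.39, FMO GS-OX1 -6.92, CHS -6.18, BCAT4 -6.16, BAT5 -5.95, IPMI1 -5.92, ELIP2 -5.13, FLS1 -4.88, ELIP1 -4.75, LEA3 -4.03, SULTR3;1 -3.57, PRR9 -3.30, GBSS1 -2.83, MYB12 -2.74, AUR1 -1.98, RUP2 -1.73, RCA -1.54, AMY3 -1.23, COP1 -1.16, BBX22 -1.14 and BBX28 -1.06. At these ends the upper set holds defence and stress genes and the lower set flavonoid, ELIP and aliphatic glucosinolate genes, with clock, starch and metabolism genes between them. Above the change of vil1-1 lay CYP71A12 4.68, XBAT34 4.53, CBP60G 4.43, PLA2A 4.301, GSTF6 4.13 and CCOAMT 4.13. Below the change of vil1-1 lay CHS -5.97, UGT73C1 -5.14, IPMI2 -5.01, SQP1 -4.97 and ELIP1 -4.60. Above the change of cop1-4 lay GLP9 4.79, CBP60G 3.099, IGMT2 2.71, CCOAMT 2.39, MYB15 2.36, PER4 2.19, WRKY70 1.97 and SOT16 1.03. Below the change of cop1-4 lay ELIP2 -1.50, WAK2 -1.41, CLH1 -1.02, GPAT3 -1.01, MIOX1 -0.99 and PPCK1 -0.98. The call of BCAT4 against Col-0 was lost without vil1-1 cop1-4 ZT0 replicate 2, and every other call of this section held in each alternative run. BCAT4, BAT5 and IPMI1 have fewer than 2 CPM in each vil1-1 cop1-4 library, so most of each difference is the change in Col-0. IPMI2 also has fewer than 2 CPM in each of them, and most of its difference is the change in vil1-1. GLP9 has 1.70 to 2.67 CPM at ZT6 and 0.523 to 0.961 CPM at ZT0 in vil1-1 cop1-4, and most of its difference is the change in cop1-4.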

How the results depend on the processing

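With library totals, which moved the median change of all genes to 0.25, 9899 genes rose and 4622 fell (68.2% of calls higher), of which 1161 fell at least 2-fold; 9344 changes lay above and 3033 below Col-0 (75.5% above, against 46.6% with TMM), and 9050 above and 2912 below vil1-1 (75.7% above, against 45.9%). Lists that changed by over 1.5 times with library totals had 7 flowering, 4 COP1 and photoreceptor, 6 auxin, 4 Polycomb and 5 root genes rising. Against cop1-4 the compared groups alone gave 337 genes above, and leaving out 1 library gave 350 to 535 above and 288 to 609 below; the cause was not tested. Leaving out 1 library gave 6649 to 7016 rising and 6211 to 6412 falling genes in vil1-1 cop1-4, 4657 to 5346 above and 4816 to 5515 below Col-0, and 4221 to 5066 above and 4410 to 5155 below vil1-1. Same-numbered libraries of the 2 times did not deviate together (r of -0.0393 to 0.0476 in vil1-1 cop1-4). Pairs with different numbers had r of -0.078 to 0.0869, and these values do not settle whether a number marks a shared batch. The replicate block gave 6766 rising and 6972 falling genes. Of the genes named with a time change, the calls of AUR1, FLC and JAZ5 and the missing calls of VIL1 and RBCS2B changed under an alternative, and no named direction turned among the called ones. With 21.3 M to 33.6 M reads per library, genes of a few reads, such as PAP1 or MYB29, allow only bounds, which cover counting error only.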

Other observations

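Gene families that share a symbol stem were looked at after their values were seen and are described without a test. Of 57 tested WRKY genes, transcription factors of defence and ageing, 22 rose and 14 fell in vil1-1 cop1-4, beside 31.7% and 32.6% of all genes. Their median change was log2 0.41, where the medians were -0.23 in cop1-4, -0.47 in vil1-1 and -0.44 in Col-0. The time change lay above that of cop1-4 in 16 WRKY genes and below it in none, beside 2.66% and 1.82% of all genes, and over the alternatives 10 to 16 lay above. Of 15 SAUR genes, small auxin-induced genes of cell expansion, 1 rose and 9 fell (median -1.16, and -0.49 in Col-0). Of 19 PIP genes, aquaporins of the plasma membrane, 2 rose and 12 fell (median -0.93, and -0.74 in Col-0). The SAUR and PIP counts also stand beside 31.7% rising and 32.6% falling of all genes. With library totals these medians were 0.66 for WRKY, -0.91 for SAUR and -0.69 for PIP genes.

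In some other families, likewise picked after their values were seen, a minority of members lay below cop1-4, beside 1.82% of all genes. Of 26 XTH genes, which remodel xyloglucan, 7 lay below the change of cop1-4 and none above (5 to 9 below over the alternatives), with medians of -0.0041 in vil1-1 cop1-4 and 0.49 in cop1-4. Of 18 KCS genes, which elongate fatty acids for waxes, 7 lay below and none above (7 to 9 over the alternatives), with medians of 0.13 in vil1-1 cop1-4 and 0.40 in cop1-4. Of 28 AGP genes, which encode arabinogalactan proteins, 6 lay below and 1 above, with medians of 0.24 in vil1-1 cop1-4 and 0.59 in cop1-4. Of 15 FLA genes, which encode fasciclin-like arabinogalactan proteins, 3 lay below and none above (3 to 8 below over the alternatives). Their medians were 0.71 in vil1-1 cop1-4 and 1.08 in cop1-4. The EXPA and TBL families had fewer differences from cop1-4. Of 18 EXPA genes, which encode expansins, 1 lay below and none above. Of 38 TBL genes, which acetylate wall polysaccharides, 1 lay below and none above.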
